A study of Homo sapiens with 14 samples.

Results

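The question addressed here was how the transcriptome of prostate cancer cells carrying the R219S substitution in FOXA1 compares with that of cells from which FOXA1 had been depleted for 24 h. For every gene the R219S effect (R219S against WT) was set beside the depletion effect (24 h against 0 h), and the difference of these effects was tested. The comparison used 8 of the 14 RNA sequencing libraries of the series, 2 in each of 4 groups. It covered the 18744 genes that could be joined between the 2 count tables, and 14323 of them had enough counts to be tested.

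All 8 libraries came from 22Rv1, an established human prostate cancer line, and every one carried the FOXA1_dTAG genotype, a FOXA1 fusion that a small molecule marks for degradation. The 0 h and 24 h groups were labelled WT with FOXA1_dTAG and differed in time, 0 h or 24 h. The WT group was labelled WT with FOXA1_dTAG, and the R219S group an R219 mutation with FOXA1_dTAG. The labels say that each of these samples received dTAG or the solvent DMSO without saying which, so it is not known whether the WT and R219S libraries were exposed to the degrader. No library of a 24 h vehicle control or of untagged cells was analysed here, and time in culture and the degrader itself cannot be told apart from FOXA1 loss. Whether R219S was 1 clone, and whether the replicates were separate cultures, is not given in the sources used here. The p-values therefore measure only the spread between these libraries.

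FOXA1, a forkhead protein, is a pioneer factor: its forkhead domain binds DNA on nucleosomes and opens chromatin for other factors. In luminal prostate cells it shapes which genes respond to androgens. Prostate cancers carry recurrent FOXA1 mutations, many of them within the forkhead domain.

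Library totals ran from 21.6 to 38.5 M counts, with 21.6 and 25.8 M in R219S and 26.4 and 38.5 M in WT. The joined genes held 94.4% of the counts in the 0 h and 24 h libraries and 99.0% in the WT and R219S libraries. Levels are given in CPM, counts scaled to the library total with 1 normalization over the 8 libraries, effects as log2 fold changes with an approximate standard error, and each group has n = 2. The 2 tables were counted separately, so levels are set side by side between 0 h and WT but were not tested. In such bulk samples, fewer cells of a type and less RNA per cell cannot be told apart.

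Some genes changed in the same direction with R219S and on FOXA1 depletion, others in opposite directions, and others in one comparison only. The metalloreductase gene STEAP2 and the androgen-inactivating enzyme gene UGT2B15 fell in both comparisons. TMPRSS2 and KLK3, classical androgen-responsive genes, fell in R219S and rose at 24 h. They were among 7 of 31 androgen-responsive genes with this pattern, while 14 fell in both comparisons. Collagen gene COL3A1 rose in R219S with no call at 24 h, and most genes of the DNA replication machinery fell far more at 24 h than in R219S.

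At an adjusted p under 0.05 (edgeR quasi-likelihood test with Benjamini-Hochberg adjustment over the 14323 genes), 8348 genes (58.3%) were called in R219S against WT, 4104 higher (28.7%) and 4244 lower (29.6%). At 24 h against 0 h, 8220 genes (57.4%) were called, 3995 higher (27.9%) and 4225 lower (29.5%). The difference of the effects was called for 8005 genes (55.9%). A called change of at least 2-fold was seen in 1594 genes (11.1%) with R219S, 555 higher (3.87%) and 1039 lower (7.25%). At 24 h there were 1113 such genes (7.77%), 455 higher (3.18%) and 658 lower (4.59%). The difference of effects was at least 2-fold for 1737 genes (12.1%), 672 with the more positive effect in R219S (4.69%) and 1065 with the more negative (7.44%).

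Changes in the same direction were called for 3224 genes (22.5%), 1557 of them higher (10.9%) and 1667 lower (11.6%). The R219S and 24 h effects differed in size for 1563 of these and were not called different for 1661. Opposite changes were called for 2002 genes (14.0%), of which 1048 were higher (7.32%) and 954 lower (6.66%) in R219S. Another 2215 genes were called with R219S, not at 24 h, and with a called difference (1065 higher, 1150 lower), and 2063 genes showed the converse (960 higher, 1103 lower). For 907 genes called only with R219S and 931 called only at 24 h, the difference was not called, so they were assigned to neither group. The remaining 2981 genes (20.8%) were called in neither comparison. These shares over all genes are the background for the counts of list members given below.

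Among changes of at least 2-fold in both comparisons, 326 genes moved in the same direction (122 higher, 204 lower) and 71 in opposite directions (35 higher and 36 lower in R219S). Restricting both tables to genes with at least 5 CPM left 125 and 29 genes. Across the 14323 genes the 2 effects had a Pearson's r of 0.289 and a Spearman's rho of 0.199. This describes genes, which are not independent replicates. The effects share no library.

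**Figure D1:**
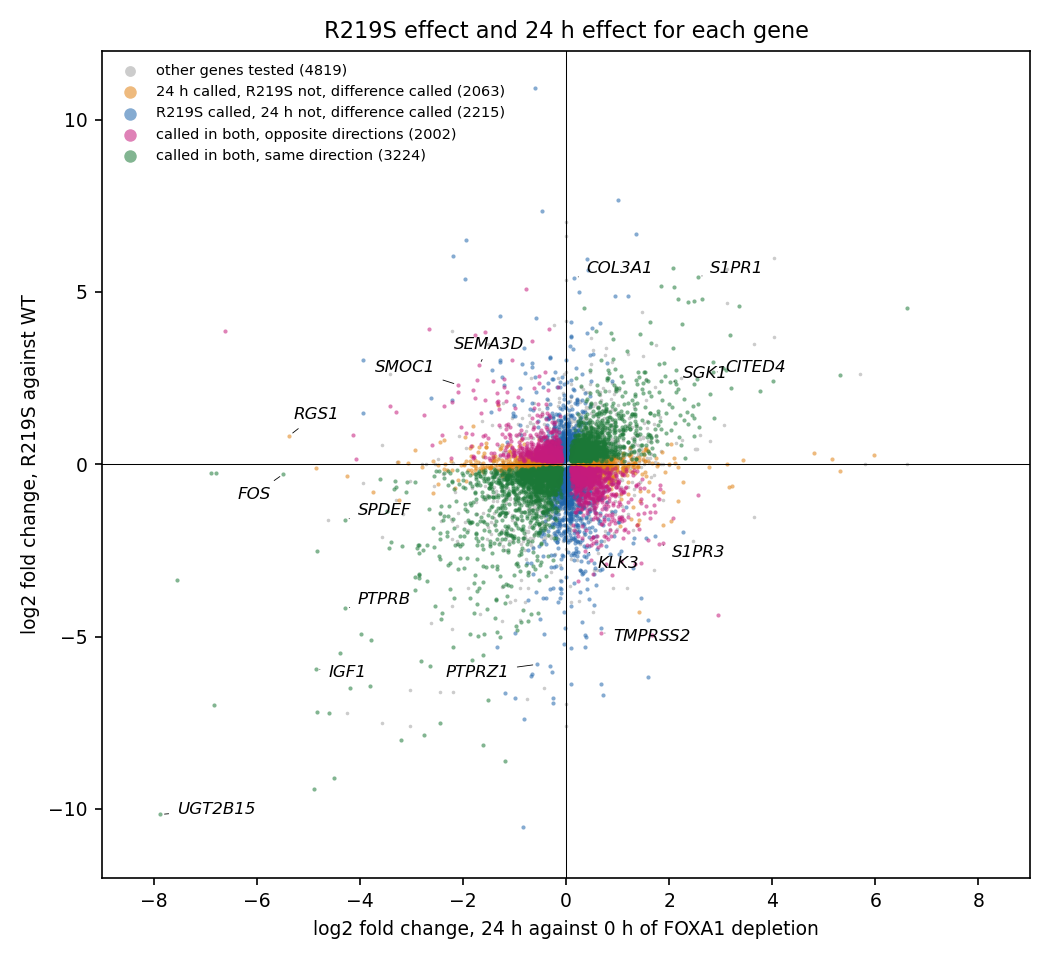
Each point is 1 of the 14323 genes tested, with the log2 fold change at 24 h against 0 h on the horizontal axis and that of R219S against WT on the vertical axis, coloured by how the gene was called. The 3224 genes that changed in the same direction fill the lower left and upper right, and the 2002 with opposite changes fill the upper left and lower right.

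Genes chosen in one comparison were then read in the libraries of the other. The 658 genes at least 2-fold lower at 24 h had a median log2 fold change of -0.49 in R219S against WT. Of these, 382 (58.0%) were called lower in R219S, against 29.6% of all genes, 81 (12.3%) were called higher and 195 were not called. The 455 genes at least 2-fold higher at 24 h had a median of 0.35 in R219S, with 190 (41.8%) called higher and 72 (15.8%) called lower. In the reverse reading, the 1039 genes at least 2-fold lower in R219S had a median of -0.26 at 24 h. Of these, 383 (36.9%) were called lower at 24 h, against 29.5% of all genes, 138 (13.3%) higher and 518 (49.9%) not called. The 555 genes at least 2-fold higher in R219S had a median of 0.40 at 24 h. There, 236 (42.5%) were called higher, against 27.9% of all genes, 68 (12.25%) lower and 251 (45.2%) not called. The medians over all genes tested were close to 0 in both comparisons.

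Averaged levels were close between the 2 libraries of every group. Mean log2(CPM + 1) over the 658 genes was 3.54 and 3.53 at 0 h, 2.32 and 2.31 at 24 h, 3.35 and 3.34 in WT and 2.83 and 2.84 in R219S. For these genes the R219S libraries lay below WT, by less than the 24 h libraries lay below 0 h, where the genes were chosen.

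**Figure D2:**
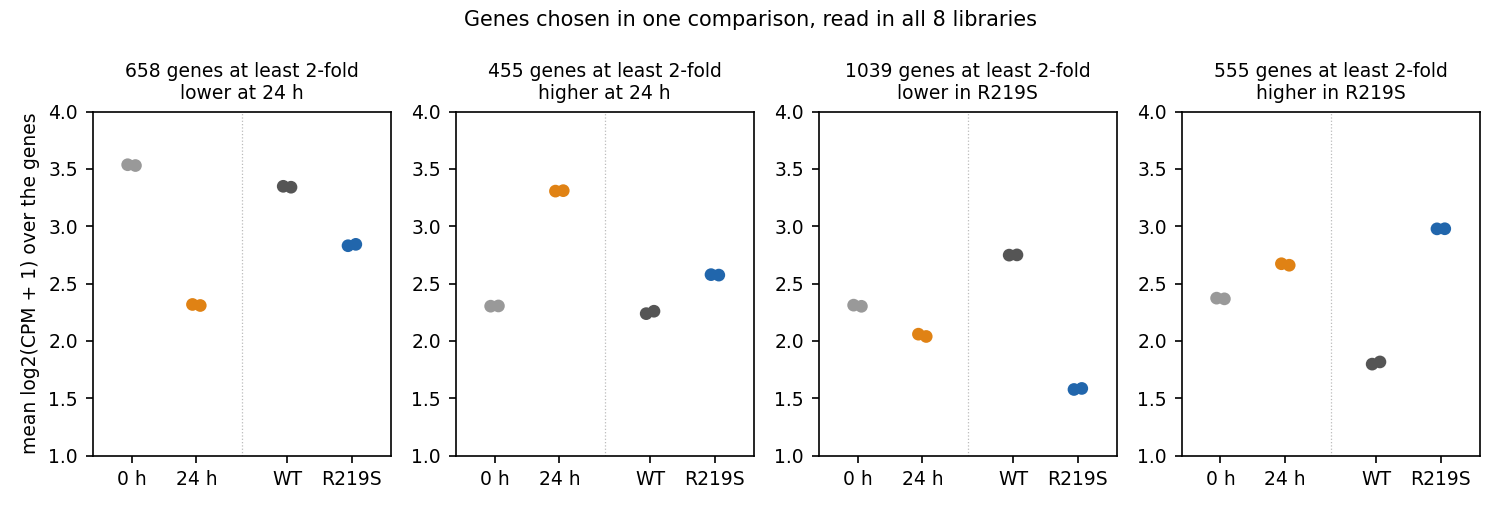
Points are single libraries (2 per group), and the vertical axis is the mean log2(CPM + 1) over the genes at least 2-fold lower or higher in the comparison that chose them. For the 658 genes lower at 24 h (2.32 and 2.31, against 3.54 and 3.53 at 0 h), R219S (2.83 and 2.84) also lies below WT (3.35 and 3.34).

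FOXA1 itself was read first as a check of the labels. FOXA1 mRNA stood at 179 and 176 CPM at 0 h, 217 and 208 at 24 h, 1035 and 1048 in WT and 715 and 692 in R219S. The groups did not overlap within either table: the transcript was lower in R219S than in WT (log2 -0.57 ± 0.035) and higher at 24 h than at 0 h (0.26 ± 0.038), a difference of effects of -0.83 ± 0.052 (adjusted p = 4.1e-23). Although both were labelled WT with FOXA1_dTAG, the WT libraries stood several times above the 0 h libraries, a gap between separately counted tables that was not tested. Degradation acts on the protein, which was not measured, so mRNA does not show how far FOXA1 was depleted. Counts per gene do not show the substitution either.

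UGT2B15, whose enzyme inactivates androgens by glucuronidation, led the genes lower in both comparisons. It was at 10.4 and 14.4 CPM at 0 h and 5.30 and 4.15 CPM in WT. At 24 h only 2 and 1 counts remained, a 255.5-fold lower level (exact 95% interval 87.1 to 1242), and R219S had 0 counts, at least 74.6-fold lower than WT with 3 counts over the R219S pair as the floor. Such exact intervals and bounds reflect counting error alone. The related genes UGT2B10, UGT2B11 and UGT2B28 were also called lower in both comparisons. In the R219S comparison UGT2B11 was at least 45.0-fold lower, from 187 counts in WT to 0, and UGT2B28 went from 137 counts to 2. Members of this family are close in sequence, so the split of reads among them is uncertain. Of 14 UGT2B and steroid-converting genes tested, 9 were lower and 1 higher in R219S, and 6 were lower and 2 higher at 24 h. Those lower in R219S included 5-alpha reductase SRD5A1, at 15.7 and 17.8 CPM at 0 h, 15.4 and 16.5 at 24 h, 32.0 and 30.9 in WT and 18.0 and 20.6 in R219S, which was not called at 24 h.

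The stretch before the start of UGT2B15 is printed because this gene had the largest fall shared by the 2 comparisons and its promoter holds a forkhead-type motif. The motif searched was TGTTTAC or TGTTTGC on both strands, within windows of 250 bases before to 50 bases after a gene's start. The bases come from RefSeq, build GRCh38.p14, at chr4:68670653-68670902, shown on the gene's minus strand and ending just before the gene start. Capitals mark the match, which is the reverse complement of TGTTTAC and begins 183 bases before the start.
UGT2B15 promoter: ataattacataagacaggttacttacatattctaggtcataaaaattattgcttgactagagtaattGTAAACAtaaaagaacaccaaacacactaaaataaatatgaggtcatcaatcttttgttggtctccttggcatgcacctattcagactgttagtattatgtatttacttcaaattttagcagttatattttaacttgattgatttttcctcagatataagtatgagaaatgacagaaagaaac
Of 11545 promoters of tested genes, 578 (5.01%) held the motif. Among genes of any effect size it was present in 63 of 1359 promoters (4.64%) of genes lower in both comparisons, 66 of 1266 (5.21%) of genes higher in both, 65 of 735 (8.84%) of genes lower in R219S and higher at 24 h, and 39 of 857 (4.55%) of genes with the reverse pattern. Genes lower in R219S and not called at 24 h held it in 49 of 930 (5.27%), and those lower at 24 h and not called in R219S in 31 of 928 (3.34%). With effects of at least 2-fold in both comparisons, 16 of 158 (10.1%) of genes lower in both and 5 of 87 (5.75%) of genes higher in both held it. So did 3 of 27 (11.1%) lower in R219S and higher at 24 h, and 1 of 28 (3.57%) with the reverse pattern. For genes at least 2-fold changed in R219S and not called at 24 h the shares were 20 of 282 (7.09%) lower and 8 of 126 (6.35%) higher. For the converse they were 7 of 100 (7.0%) lower and 3 of 80 (3.75%) higher. A match describes letters in a window and shows no binding.

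PTPRB, a receptor tyrosine phosphatase, fell in both with no called difference. It was at 76.0 and 74.4 CPM at 0 h, 3.76 and 3.95 at 24 h, 19.9 and 18.6 in WT and 1.09 and 1.03 in R219S, with effects of -4.18 ± 0.15 in R219S and -4.28 ± 0.088 at 24 h and a difference of 0.10 ± 0.25 (adjusted p = 0.764).

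Growth factor gene IGF1 was at 24 and 23.5 CPM at 0 h, 0.948 and 0.680 at 24 h, 13.1 and 13.9 in WT and 0.190 and 0.237 in R219S. Both effects were called (-5.93 ± 0.24 in R219S, -4.86 ± 0.15 at 24 h), while the difference of -1.07 ± 0.48 was barely called (adjusted p = 0.0486) and lost its call under 12 alternative settings, with adjusted p from 0.0527 to 0.212. These included leaving out any 1 library other than WT replicate 1 or 24 h replicate 2. HLA-DQB1 and HLA-DQB2, beta chains of major histocompatibility complex class II molecules, fell together, but their sequences are close and their separate values are uncertain. HLA-DQB1 was at 12.2 and 10.6 CPM at 0 h, 0.588 and 0.648 at 24 h, 13.9 and 13.9 in WT and 0.237 and 0.0791 in R219S. HLA-DQB2 had 453 counts in the WT pair and 2 in the R219S pair, a 163-fold lower level (exact 95% interval 45.0 to 1354). Its difference of effects lost the call without R219S replicate 2 (adjusted p = 0.209) or 24 h replicate 2 (0.0508). Fibronectin gene FN1, of the epithelial-mesenchymal list, was at 422 and 409 CPM at 0 h, 163 and 159 at 24 h, 867 and 825 in WT and 57.1 and 53.4 in R219S. Its fall was deeper in R219S (difference -2.57 ± 0.059). Of 19 genes of that list tested, 7 were higher and 8 lower in R219S (28.7% and 29.6% of all genes). At 24 h 5 were higher and 5 lower, and 3 rose and 2 fell in both comparisons.

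Of 31 androgen-responsive genes tested, 23 were lower and 5 higher in R219S, and 19 were lower and 8 higher at 24 h. The list median was -0.64 in R219S and -0.34 at 24 h. In 14 the change was lower in both, in 1 higher in both, in 7 lower in R219S and higher at 24 h, and in 3 the reverse. Among those lower in both, CHRNA2, a nicotinic acetylcholine receptor subunit, was at 22.2 and 22.1 CPM at 0 h, 3.30 and 2.79 at 24 h, 21.3 and 20.7 in WT and 2.37 and 2.25 in R219S. Its effects of -3.19 ± 0.13 and -2.86 ± 0.11 were not called different. STEAP2, a metalloreductase of prostate epithelium, was at 364 and 362 CPM at 0 h, 108 and 108 at 24 h, 121 and 122 in WT and 29.6 and 29.8 in R219S, with effects of -2.03 ± 0.050 and -1.75 ± 0.040.

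Genes typical of liver and other endodermal tissues formed the list with the lowest R219S median. Of 16 tested, 12 were lower and 0 higher in R219S, and 9 were lower and 2 higher at 24 h, with medians of -1.68 and -1.13, and 7 fell in both. Albumin gene ALB was at 5.84 and 4.79 CPM at 0 h, 1.90 and 2.27 at 24 h, 25.4 and 25.5 in WT and 3.51 and 3.08 in R219S. The intestinal chloride transporter gene SLC26A3 was at 10.1 and 10.7 CPM at 0 h, 3.50 and 3.37 at 24 h, 4.48 and 5.26 in WT and 1.90 and 1.19 in R219S. Its effects, -1.67 ± 0.21 in R219S and -1.59 ± 0.14 at 24 h, were not called different. AMBP, a plasma protein precursor, also fell in both (-1.50 ± 0.37 and -2.37 ± 0.32). TTR, the thyroid hormone carrier, had 14 counts in the WT pair and 0 in R219S, at least 3.37-fold lower. Summed over the list the level was 69.8 and 69.0 CPM at 0 h, 44.7 and 43.6 at 24 h, 135.5 and 135.6 in WT and 73.0 and 72.1 in R219S. The medians thus include weakly expressed members such as TTR.

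Luminal epithelial genes split. Of 24 tested, 13 were lower and 8 higher in R219S, and 6 were lower and 12 higher at 24 h. SPDEF, an ETS factor of luminal and goblet cells, was at 44.7 and 41.5 CPM at 0 h, 2.45 and 1.94 at 24 h, 428 and 449 in WT and 147 and 142 in R219S, and AGR2, a secretory pathway disulfide isomerase, at 48.3 and 48.8 CPM at 0 h, 10.3 and 9.46 at 24 h, 102 and 96.8 in WT and 35.0 and 35.6 in R219S. Both fell in both comparisons. The effects on SPDEF were -1.60 ± 0.041 in R219S and -4.29 ± 0.091 at 24 h, a deeper fall at 24 h (difference 2.69 ± 0.11). KRT7, KRT19, the grainyhead factor GRHL2 and claudin gene CLDN4 rose in both. CLDN4 was at 133 and 138 CPM at 0 h, 274 and 259 at 24 h, 71.3 and 74.4 in WT and 159.7 and 158 in R219S, with effects of 1.12 ± 0.044 and 0.98 ± 0.040.

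Mitotic genes fell in both comparisons, more steeply at 24 h. Of 30 tested, 25 were lower and 1 higher in R219S, 29 were lower at 24 h, and 25 fell in both, with medians of -0.27 and -0.79. The spindle checkpoint kinase gene BUB1B was at 59.4 and 57.2 CPM at 0 h, 26.8 and 28.0 at 24 h, 109 and 112 in WT and 75.1 and 74.7 in R219S, with effects of -0.56 ± 0.049 in R219S and -1.09 ± 0.056 at 24 h. AURKB, a kinase of the chromosomal passenger complex, fell in both (-0.54 ± 0.065 and -1.15 ± 0.075). Of 24 p53 targets, 16 were lower and 2 higher in R219S, 11 were lower and 3 higher at 24 h, 8 fell in both and 2 changed in opposite directions (29.6% and 29.5% of all genes were lower). FAS, a death receptor, fell in both (-1.11 ± 0.15 and -0.92 ± 0.13), with no called difference.

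Among genes higher in both comparisons, SPINK2, a serine protease inhibitor, was at 3.28 and 3.90 CPM at 0 h, 22.2 and 22.4 at 24 h, 0.501 and 0.724 in WT and 17.5 and 15.7 in R219S. The rise was larger in R219S (4.79 ± 0.18) than at 24 h (2.63 ± 0.11), a difference of 2.16 ± 0.26 (adjusted p = 2.6e-11). S1PR1, a receptor for sphingosine 1-phosphate, was at 2.75 and 2.65 CPM at 0 h, 16.1 and 15.8 at 24 h, 0.0263 and 0.229 in WT and 4.89 and 4.95 in R219S, and its difference of 2.88 ± 0.46 was called too. CITED4, a coactivator that binds CBP and p300, was at 0.433 and 0.447 CPM at 0 h, 2.65 and 3.76 at 24 h, 4.69 and 4.80 in WT and 31.3 and 29.03 in R219S. Despite a higher level in WT than at 0 h, its effects of 2.67 ± 0.11 and 2.85 ± 0.26 were not called different.

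ISLR2, a leucine-rich repeat membrane protein of neurons, was at 0.371 and 0.715 CPM at 0 h, 5.07 and 4.86 at 24 h, 0.474 and 0.457 in WT and 6.12 and 6.57 in R219S, with effects of 3.75 ± 0.26 and 3.17 ± 0.25. FBXW12, an F-box protein gene, rose by 2.47 ± 0.33 and 2.55 ± 0.18. Matrix Gla protein gene MGP, an inhibitor of calcification, had 0 counts at 0 h and 25 at 24 h, at least 8.94-fold higher, and went from 0.290 and 0.343 CPM in WT to 7.64 and 7.00 CPM in R219S. None of these 3 genes had a called difference of effects.

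Glucocorticoid-responsive genes, which overlap with androgen-responsive ones, went both ways: of 15 tested, 6 were higher and 6 lower in R219S, and 11 higher and 3 lower at 24 h. SGK1, a serum- and glucocorticoid-regulated kinase, was at 14.3 and 13.6 CPM at 0 h, 57.4 and 55.9 at 24 h, 3.13 and 3.85 in WT and 17.6 and 18.2 in R219S, rising by 2.38 ± 0.11 in R219S and 2.02 ± 0.074 at 24 h. PDK4, which restrains pyruvate oxidation, rose by 1.72 ± 0.036 and 0.73 ± 0.035, and NFKBIA, the inhibitor of NF-kB, by 1.26 ± 0.056 and 0.81 ± 0.052. Of 13 basal epithelial markers, 6 were higher and 4 lower in R219S, 6 were higher and 2 lower at 24 h, and 5 rose and 2 fell in both. Keratin gene KRT15 was at 16.4 and 14.4 CPM at 0 h, 48.2 and 48.5 at 24 h, 3.98 and 4.08 in WT and 16.9 and 15.3 in R219S, and LAMB3, a laminin chain, rose by 2.45 ± 0.13 and 1.35 ± 0.095. ID1 and ID2, inhibitors of basic helix-loop-helix factors, rose in both, ID2 from 15.5 and 14.3 CPM in WT to 76.4 and 81.6 CPM in R219S and from 265 and 254 CPM at 0 h to 572 and 545 CPM at 24 h. Ferritin heavy chain gene FTH1 rose by 1.53 ± 0.089 and 1.07 ± 0.085.

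**Figure D3:**
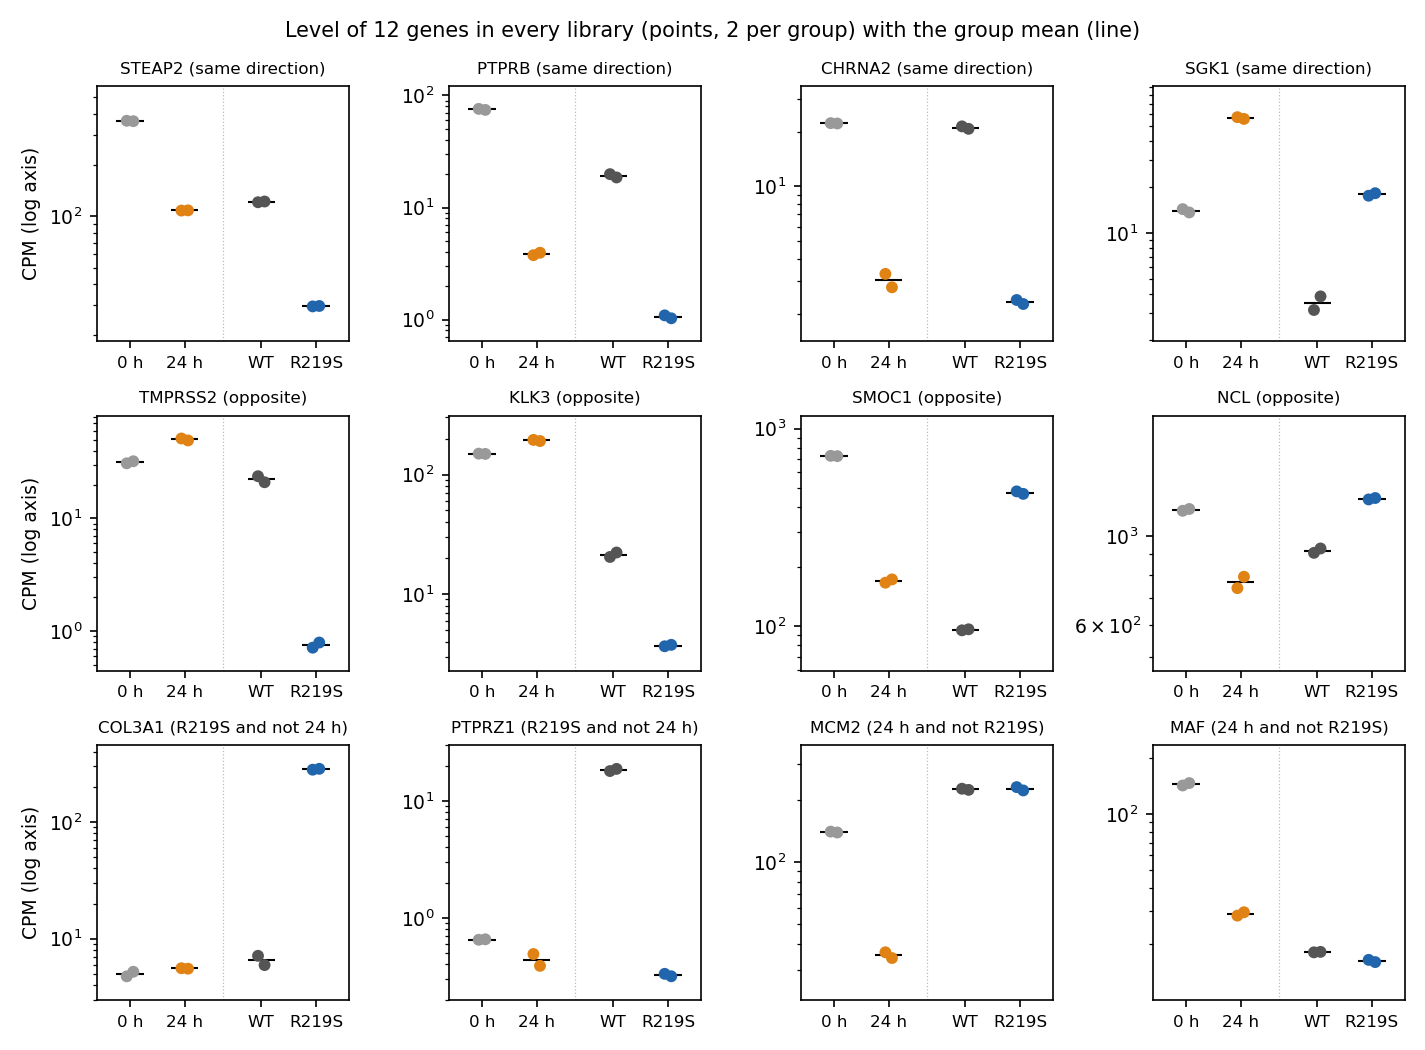
Points are the CPM of single libraries on a log axis and lines the mean of the 2 libraries of each group, for 12 genes labelled by how they were called, with the 0 h and 24 h table left of the dotted line and the WT and R219S table right of it. STEAP2 drops in both tables (to 108 and 108 CPM at 24 h, 29.6 and 29.8 CPM in R219S), TMPRSS2 drops only in R219S (0.712 and 0.791 CPM), and MCM2 drops only at 24 h (36.5 and 34.2 CPM).

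Opposite changes included widely used markers of the androgen response. TMPRSS2, a serine protease of prostate epithelium, was at 30.9 and 32.2 CPM at 0 h, 51.3 and 49.3 at 24 h, 23.7 and 21.0 in WT and 0.712 and 0.791 in R219S. Both R219S libraries lay far below WT (-4.89 ± 0.16) and both 24 h libraries above 0 h (0.67 ± 0.065), a difference of -5.56 ± 0.17 (adjusted p = 6.8e-41). KLK3, which encodes prostate-specific antigen, was at 149.5 and 149 CPM at 0 h, 195 and 190.5 at 24 h, 20.4 and 22.3 in WT and 3.65 and 3.76 in R219S, with effects of -2.52 ± 0.10 and 0.37 ± 0.042. FKBP5, a cochaperone of steroid receptors, was at 951 and 934 CPM at 0 h, 1318 and 1327 at 24 h, 1544 and 1508 in WT and 959 and 994 in R219S, with effects of -0.64 ± 0.034 and 0.49 ± 0.034. In the other direction EAF2, an androgen-induced elongation factor partner, was at 31.9 and 31.9 CPM at 0 h, 9.77 and 11.0 at 24 h, 3.66 and 3.47 in WT and 6.22 and 6.49 in R219S: it was higher in R219S (0.83 ± 0.14) and lower at 24 h (-1.62 ± 0.088).

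Some forkhead factors and partners were among the genes lower in R219S and higher at 24 h. Of 24 tested, 11 were lower and 8 higher in R219S (29.6% and 28.7% of all genes). At 24 h 5 were lower and 13 higher (29.5% and 27.9% of all genes). The opposite pattern was seen in 6 (6.66% of all genes) and its reverse in 1, while 5 rose and 3 fell in both. SOX4 was at 140.2 and 140.3 CPM at 0 h, 239 and 255 at 24 h, 147 and 155 in WT and 66.8 and 63.5 in R219S, with effects of -1.21 ± 0.046 and 0.82 ± 0.041. The Groucho-type corepressor gene TLE3 was at 162 and 159 CPM at 0 h, 206 and 199 at 24 h, 256 and 269 in WT and 129 and 129 in R219S, with effects of -1.03 ± 0.040 and 0.34 ± 0.039. A related corepressor, TLE1, went from 1.48 and 1.18 CPM in WT to 12.0 and 10.9 CPM in R219S (3.08 ± 0.18) with no call at 24 h. GATA3 was higher in R219S (2.36 ± 0.17) and lower at 24 h (-0.52 ± 0.13), and SOX9 rose in both (0.82 ± 0.051 and 1.75 ± 0.047).

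Cell surface and secreted signalling genes also parted. S1PR3, another sphingosine 1-phosphate receptor, was at 18.3 and 18.4 CPM at 0 h, 67.5 and 60.9 at 24 h, 20.4 and 17.4 in WT and 4.03 and 3.64 in R219S. It was lower in R219S (-2.32 ± 0.12) and higher at 24 h (1.81 ± 0.071), whereas S1PR1 rose in both. EDN2, which encodes the vasoactive peptide endothelin 2, was at 12.5 and 14.3 CPM at 0 h, 41.5 and 41.4 at 24 h, 18.9 and 20.9 in WT and 6.69 and 6.68 in R219S, and the junction protein gene CGNL1 at 5.41 and 5.60 CPM at 0 h, 15.1 and 17.9 at 24 h, 9.04 and 7.20 in WT and 2.18 and 1.46 in R219S. Guidance ligand gene SLIT2, organic cation transporter gene SLC22A3 and potassium channel gene KCNK3 showed the same pattern, with differences of -3.63 ± 0.51, -4.33 ± 0.30 and -3.29 ± 0.34. KCNK3 was at 25.9 and 23.9 CPM at 0 h, 70.7 and 62.2 at 24 h, 1.45 and 1.22 in WT and 0.380 and 0.356 in R219S, so its R219S effect rests on levels near 1 CPM. Receptor tyrosine kinase genes ERBB2 and ERBB3 were lower in R219S (-0.95 ± 0.040 and -0.22 ± 0.039) and higher at 24 h (0.49 ± 0.043 and 0.81 ± 0.038). TGFB3, a TGF-beta ligand, was lower in R219S (-0.99 ± 0.11) and higher at 24 h (1.80 ± 0.070), and TGFB2 was the reverse (0.57 ± 0.11 and -2.61 ± 0.083). Of the glucocorticoid-responsive list, 5 genes had the pattern of TMPRSS2, among them ZBTB16 (-0.98 ± 0.054 and 0.55 ± 0.049) and the circadian gene PER1 (-0.56 ± 0.047 and 0.37 ± 0.048). Luminal factor genes EHF (-1.34 ± 0.082 and 1.11 ± 0.057) and HOXB13 (-0.35 ± 0.040 and 0.63 ± 0.038) had it as well.

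The secreted matricellular protein gene SMOC1 led the genes higher in R219S and lower at 24 h. It was at 728 and 726 CPM at 0 h, 166 and 173 at 24 h, 95.3 and 96.5 in WT and 481 and 468 in R219S. No libraries of the compared groups overlapped, and effects of 2.31 ± 0.040 and -2.10 ± 0.038 gave a difference of 4.41 ± 0.055 (adjusted p = 6.1e-66). SEMA3D, a secreted semaphorin, was at 26.4 and 26.2 CPM at 0 h, 7.62 and 8.75 at 24 h, 4.00 and 2.48 in WT and 25.8 and 23.6 in R219S, and PTGS2, the inducible cyclooxygenase, at 18.8 and 18.6 CPM at 0 h, 5.95 and 5.28 at 24 h, 1.87 and 1.87 in WT and 10.7 and 9.73 in R219S. The splicing regulator RBM24, the sodium-calcium exchanger gene SLC8A3 and the Ras pathway scaffold gene CNKSR2 had differences of 4.19 ± 0.24, 3.97 ± 0.40 and 3.70 ± 0.21. LEF1, a transcription factor of the Wnt pathway, was at 34.2 and 31.4 CPM at 0 h, 14.4 and 11.7 at 24 h, 12.9 and 13.6 in WT and 55.5 and 56.4 in R219S, with effects of 2.08 ± 0.077 and -1.33 ± 0.079.

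Ribosome biogenesis genes, many of them MYC targets, rose in R219S and fell at 24 h. Of 24 tested, 18 were higher and 1 lower in R219S, all 24 were lower at 24 h, and 18 had opposite changes, with medians of 0.25 and -0.46. Nucleolin gene NCL was at 1153 and 1165 CPM at 0 h, 742 and 792 at 24 h, 907 and 930.3 in WT and 1230 and 1240 in R219S. NOP16 and POLR1C, which act in ribosome assembly and in RNA polymerases I and III, had R219S effects of 0.52 ± 0.070 and 0.55 ± 0.075 and 24 h effects of -0.67 ± 0.065 and -0.50 ± 0.065. All 13 mitochondrially encoded mRNAs were lower at 24 h and 10 were higher in R219S, with medians of -0.35 and 0.17. The 24 h median was -0.13 with a correction for GC content and length. MT-ND1, a complex I subunit, had effects of 0.30 ± 0.034 in R219S and -0.43 ± 0.033 at 24 h. These shifts were small, and all 24 biogenesis genes changed less than 2-fold in both comparisons.

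Sterol, chaperone and secretory genes followed this pattern in part. Of 26 cholesterol and fatty acid synthesis genes, 15 were higher and 3 lower in R219S, 3 were higher and 18 lower at 24 h, and 10 had opposite changes. DHCR7, a late enzyme of cholesterol synthesis, had effects of 0.57 ± 0.040 in R219S and -0.44 ± 0.043 at 24 h. SREBF1, the lipogenic regulator, rose in both (1.02 ± 0.037 and 0.62 ± 0.046). Of 20 heat shock genes, 8 were higher and 4 lower in R219S (28.7% and 29.6% of all genes), and 1 was higher and 15 lower at 24 h. The 4 lower in R219S were also lower at 24 h, and 6 had opposite changes. HSPA8, the constitutive HSP70, was at 1162 and 1177 CPM at 0 h, 800.2 and 794 at 24 h, 944 and 924 in WT and 1664 and 1652 in R219S. Of 28 unfolded protein and ATF4 response genes, 13 were higher and 11 lower in R219S, and 3 were higher and 21 lower at 24 h, with 7 opposite changes and 10 falls in both. Serine synthesis enzyme gene PSAT1 fell in both (-0.61 ± 0.042 and -1.68 ± 0.055), and the chaperone cofactor DNAJB9 had opposite changes (0.46 ± 0.084 and -0.52 ± 0.073).

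**Figure D4:**
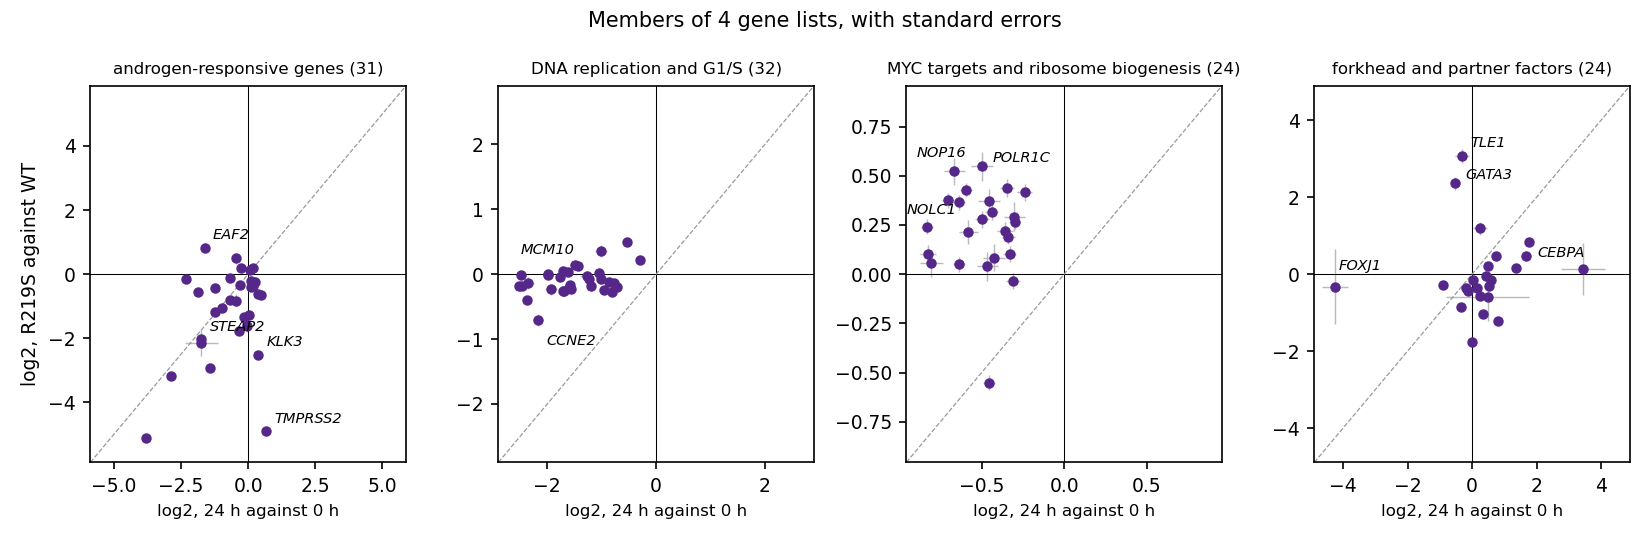
Each point is a list member with its log2 fold change at 24 h (horizontal) and in R219S (vertical), bars are standard errors and the dashed line marks equal effects. Most of the 31 androgen-responsive genes lie below 0 on the vertical axis, the 32 replication genes lie left of 0 and near 0 vertically, the 18 of 24 biogenesis genes with opposite called changes lie in the upper left, and forkhead factors scatter.

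COL3A1, a chain of fibrillar collagen, rose in R219S and was not called at 24 h. It was at 4.76 and 5.21 CPM at 0 h, 5.59 and 5.54 at 24 h, 7.14 and 5.95 in WT and 281 and 286 in R219S. Both R219S libraries stood far above WT, with an R219S effect of 5.42 ± 0.065, a 24 h effect of 0.16 ± 0.12 and a difference of 5.26 ± 0.15 (adjusted p = 3.6e-43). WNT5A, a non-canonical Wnt ligand, was at 0.0619 and 0.0893 CPM at 0 h, 0.131 and 0.227 at 24 h, 0.422 and 0.343 in WT and 11.5 and 11.8 in R219S. EPGN, an EGF-family ligand, was at 0.309 and 0.387 CPM at 0 h, 0.556 and 0.389 at 24 h, 0.0790 and 0.191 in WT and 7.02 and 5.97 in R219S. The immune receptor gene SLAMF1 and the RNA-binding protein gene RBMS1 had R219S effects of 6.05 ± 0.43 and 4.12 ± 0.33. Without 0 h replicate 2 the difference lost its call for SLAMF1 (adjusted p = 0.9998) and WNT5A (0.064), and without 0 h replicate 1 for RBMS1 (0.268). RBMS1 also lost it after thinning to equal depth (0.0551). All 3 had few counts at 0 h and 24 h.

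Genes that fell with R219S and were not called at 24 h were often weakly expressed in the depletion table. PTPRZ1, a receptor phosphatase of neural cells, was at 0.649 and 0.655 CPM at 0 h, 0.490 and 0.389 at 24 h, 18.0 and 18.8 in WT and 0.332 and 0.317 in R219S. LBH, a transcriptional cofactor, was at 0.680 and 0.655 CPM at 0 h, 0.719 and 0.583 at 24 h, 7.27 and 7.32 in WT and 0.142 and 0.237 in R219S, and BEND4 at 2.17 and 2.14 CPM at 0 h, 1.86 and 1.69 at 24 h, 8.70 and 8.80 in WT and 0.142 and 0.119 in R219S. In each of these 3 the R219S and WT libraries were far apart and the 0 h and 24 h libraries overlapped or lay close together, all under 3 CPM. GC, which encodes the vitamin D-binding protein, went from 396 counts in WT to 0 in R219S, at least 95.2-fold lower, with 6 counts at 0 h and 3 at 24 h. MROH2A had a difference of -5.42 ± 0.86. Of the 365 genes lower by at least 2-fold in R219S and not called at 24 h, 156 (42.7%) had under 1 CPM at 0 h, against 36 of 383 (9.40%) of those at least 2-fold lower in R219S and also lower at 24 h. Few counts at 0 h make a modest fall hard to detect at this depth. Deep falls were still called for the 36 genes and others such as UGT2B11 (0.649 and 0.566 CPM at 0 h). The part of low counts in the missing 24 h calls was not tested.

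Better expressed members of the lists showed R219S changes of this kind too. ETV1, an ETS factor, was at 11.1 and 10.9 CPM at 0 h, 10.7 and 11.3 at 24 h, 37.6 and 36.2 in WT and 11.6 and 10.2 in R219S, with an R219S effect of -1.77 ± 0.088 and a 24 h effect of -0.01 ± 0.096. NDRG1, an androgen- and hypoxia-responsive gene, was at 154 and 145 CPM at 0 h, 156 and 152 at 24 h, 180.2 and 182 in WT and 76.8 and 74.5 in R219S. FASN, the fatty acid synthase gene, was at 871 and 802 CPM at 0 h, 925 and 850.5 at 24 h, 3549 and 3770 in WT and 2497 and 2367 in R219S: it fell in R219S (-0.59 ± 0.039) and was not called at 24 h (0.09 ± 0.040, adjusted p = 0.0633). The cohesin subunit genes STAG1 and PDS5B rose in R219S (0.74 ± 0.056 and 0.72 ± 0.074), with 24 h effects of -0.03 ± 0.053 and -0.10 ± 0.066. Of 20 cohesin and loop genes tested, 8 were higher and 5 lower in R219S (28.7% and 29.6% of all genes). At 24 h 6 were higher and 6 lower, and 5 fell in both comparisons. HSPA1B, an inducible HSP70 gene with a near-identical paralog and so uncertain, rose by 1.12 ± 0.044.

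DNA replication and G1/S genes were the clearest group called at 24 h with little or no R219S change. All 32 tested were lower at 24 h, with a median of -1.58. In R219S 16 were lower and 4 higher, with a median of -0.13 (-0.083 after thinning to equal depth), and the difference of effects was called for all 32. The helicase subunit gene MCM2 was at 140.4 and 139 CPM at 0 h, 36.5 and 34.2 at 24 h, 227 and 224 in WT and 231 and 222 in R219S. The WT and R219S libraries overlapped and the 0 h and 24 h libraries did not, with effects of 0.01 ± 0.039 and -1.98 ± 0.047. MCM10, GINS2 and E2F2 were not called in R219S and fell at 24 h (effects -2.49 ± 0.095, -2.36 ± 0.13 and -1.98 ± 0.075). CCNE2, a G1/S cyclin, fell in both (-0.71 ± 0.097 and -2.17 ± 0.085). Among androgen-responsive genes, MAF, a basic leucine zipper factor, was also called at 24 h and not in R219S, at 142 and 146 CPM at 0 h, 28.4 and 29.6 at 24 h, 18.1 and 18.2 in WT and 16.5 and 16.0 in R219S.

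TSPAN18, CABP1 and RAB5IF rose at 24 h and were not called in R219S (24 h effects 3.17 ± 0.16, 1.92 ± 0.16 and 2.12 ± 0.11). TSPAN18, a tetraspanin, was at 2.01 and 1.34 CPM at 0 h, 14.3 and 15.7 at 24 h, 0.527 and 0.648 in WT and 0.522 and 0.237 in R219S. RGS1, a regulator of G protein signalling, was at 33.7 and 32.5 CPM at 0 h, 0.458 and 1.13 at 24 h, 0.211 and 0.0762 in WT and 0.522 and 0.0791 in R219S. Along with the zinc finger gene EGR4 (-4.85 ± 0.32) and the RNA-binding protein gene KHDRBS2 (-3.75 ± 0.18) it was high at 0 h and near or under 1 CPM in WT, so little fall was measurable with R219S.

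Immediate early genes, which growth factors and stress induce quickly, were mostly lower at 24 h. Of 32 tested, 24 were lower and 3 higher at 24 h, and 12 were lower and 8 higher in R219S, with medians of -0.75 and -0.11. NR4A1, an orphan nuclear receptor, fell in both (-0.90 ± 0.056 and -1.12 ± 0.055). ATF3 was at 166 and 167 CPM at 0 h, 28.7 and 27.0 at 24 h, 40.6 and 40.3 in WT and 45.9 and 41.4 in R219S, and EGR2 at 12.3 and 10.2 CPM at 0 h, 0.686 and 0.583 at 24 h, 2.16 and 2.06 in WT and 3.70 and 3.92 in R219S. Summed over the list the level was 3185 and 3124 CPM at 0 h, 1419 and 1418 at 24 h, 1441 and 1470 in WT and 1467 and 1426 in R219S. The 0 h libraries stood apart from the other 6, and the part of this in the 24 h effects was not tested.

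**Figure D5:**
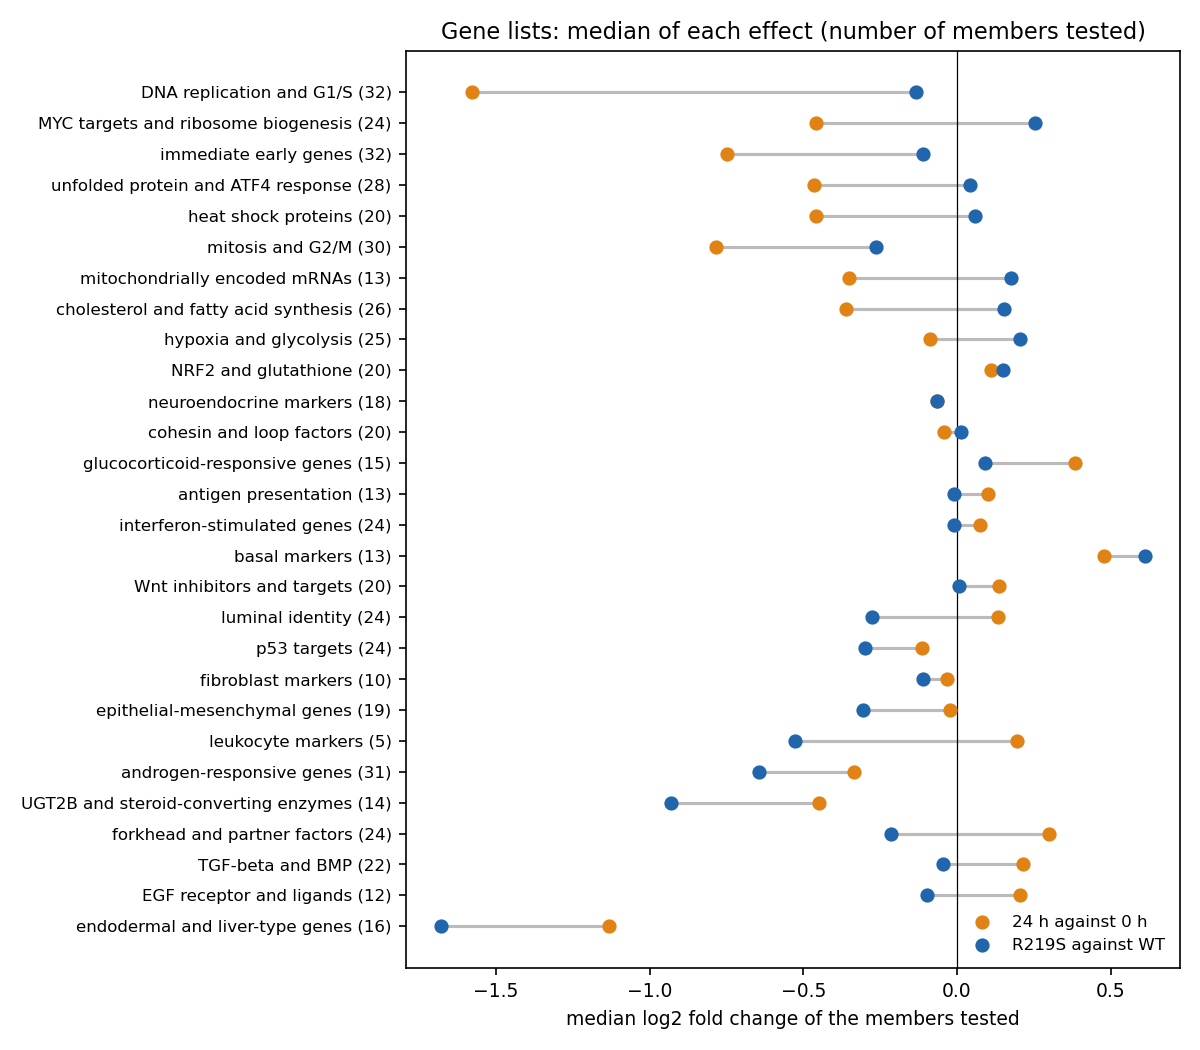
Points are the median log2 fold change of the tested members of each list, at 24 h against 0 h and in R219S against WT, joined by a line, with the number of members in parentheses. The medians lie far apart for DNA replication (-1.58 and -0.13), on opposite sides of 0 for ribosome biogenesis (-0.46 and 0.25), and below 0 in both for androgen-responsive genes (-0.34 and -0.64) and endodermal genes (-1.13 and -1.68).

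Markers of other cell types were read in the same libraries. Of 14 leukocyte markers 5 were tested, 1 lower in R219S and 1 higher at 24 h, with a summed level of 3.51 to 6.08 CPM in all libraries, and CD3D and MS4A1 had 0 counts throughout. Of 11 endothelial markers 2 were tested, with ENG called lower in R219S, and KDR and ERG had at most 2 and 1 counts in any library. Fibroblast markers summed to 70.9 to 83.0 CPM at 0 h and 24 h, 244 and 255 in WT and 552 and 563 in R219S. Of 10 tested, 5 were higher and 2 lower in R219S, 3 were higher and 2 lower at 24 h, and COL3A1 accounted for most of the summed rise, while THY1 had 0 counts and COL1A2 and POSTN at most 3. Decorin gene DCN was at 0.185 and 0.298 CPM at 0 h, 0.686 and 0.551 at 24 h, 21.6 and 20.2 in WT and 38.7 and 39.3 in R219S. The part of such markers in the changes of COL3A1 was not tested. Of 18 neuroendocrine markers, 7 were higher and 8 lower in R219S and 3 higher and 5 lower at 24 h.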

How the data were processed

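The authors deposited raw read counts per gene, made with STAR alignment to hg19 and featureCounts, per the submitters' processing notes, which also name DESeq2. Versions, strand setting and annotation are not given in the sources used here. The 2 count tables used hold the 0 h and 24 h libraries, keyed by Ensembl gene, and the WT and R219S libraries, keyed by symbol. The other tables of the series were not used here. Ensembl genes were given symbols and joined on symbols unique in both tables: 17598 genes matched by current symbol and 1146 by an older one, while 1499 features of the R219S table were not joined, and 26 of its names read as dates.

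All 8 libraries entered 1 edgeR 4.0.16 fit in R 4.3.3 with a mean for each of the 4 groups (filterByExpr, TMM scaling, glmQLFit with robust dispersion, glmQLFTest), and contrasts gave the R219S effect, the 24 h effect and their difference. Calls used a Benjamini-Hochberg adjusted p under 0.05. Standard errors were approximated as the absolute log2 fold change divided by the square root of F. On simulated data with 14323 genes, the difference of effects was recovered for 84% of 100 genes changed by 0.5 on the log2 scale. For 100 genes changed by 1 it was recovered in 100%, and 15 unchanged genes were also called. All changed genes were drawn from those with a mean of at least 5 CPM. Recovery was not measured below that level, so these shares do not cover weakly expressed genes. Alternatives used limma 3.58.1 and DESeq2 1.42.0, other scalings, filters and symbol matching, thinning to equal depth, a GC and length correction and leaving out each library.

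Named genes had at least 5 CPM in the highest group and no overlap between the libraries compared (R219S and WT, or 24 h and 0 h for genes called only there). They were the 6 with the largest effects in each class and direction (4 for those called at 24 h only), ranked by the smaller of both effects where both were called. FOXA1 is always given. Some genes that this rule names are not reported here. From each gene list up to 4 members per class and direction were named by the same ranking. The comparison and the lists were chosen with earlier results of these data known. Labels share replicate numbers, but same-numbered libraries did not deviate together (correlations 0.01 and 0.023), so the numbers were not taken as pairs.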

Additional observations from a re-analysis of the deposited data

Results flagged for a closer look

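For 2002 genes the R219S effect and the 24 h effect were both called and had opposite signs, and for 71 of them both changes were at least 2-fold. Genes called with opposite signs in both comparisons pass the test of the difference almost by construction, so that test adds no separate support.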

How the results depend on the processing

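Effects were recomputed under the alternatives for FOXA1 and the genes named by the class ranking. None that was called in the main or the alternative fit changed sign. Of 2067 recomputed values of 118 effects, 18 lost their call (12 for IGF1, 2 each for HLA-DQB2 and RBMS1, 1 each for SLAMF1 and WNT5A). Signs of effects called in neither fit were not compared, and genes named only from the lists were not recomputed. Requiring 5 CPM in both tables, an alternative chosen after seeing the data, lowered the genes with changes of at least 2-fold in both comparisons from 326 to 125 (same direction) and from 71 to 29 (opposite). The R219S median of genes lower at 24 h (-0.49) was -0.45 with DESeq2, -0.45 with a minimum of 1 CPM, -0.47 with current symbols only, -0.47 with limma voom, -0.48 with DESeq2's size factors and -0.44 after thinning. That of genes higher at 24 h (0.35) was 0.43 after thinning. The 24 h median of genes lower in R219S (-0.26) was -0.28 with a minimum of 1 CPM, -0.29 with current symbols only, -0.30 with no filter and -0.28 after thinning, and that of genes higher in R219S (0.40) was 0.44 with the GC and length correction, also added after seeing the data. With 1 library left out, calls ranged from 7117 to 8501 for R219S, 7274 to 8178 for 24 h and 7166 to 7622 for the difference, with 2830 to 3013 genes in the same direction (303 to 330 at least 2-fold), 1696 to 1859 opposite (66 to 84 at least 2-fold), 1846 to 2381 called in R219S and not at 24 h, and 1796 to 2241 the converse. The 4 medians then ranged from -0.50 to -0.45, 0.33 to 0.47, -0.35 to -0.25 and 0.37 to 0.44. With the replicate number as a block, 8497, 8359 and 8132 genes were called, 3324 in the same and 2104 in opposite directions. Class sizes do not show which members were kept. With the GC and length correction, 67.67% of genes called in R219S and not at 24 h stayed in their class, and 66.55% of the converse. The shares were 79.3% for opposite and 89.0% for same-direction genes. With DESeq2 these 4 shares were 77.7%, 78.6%, 77.3% and 82.1%. GC content correlated across genes with the 24 h effect (Spearman's rho 0.209) more than with the R219S effect (-0.009). The plotted median of the Wnt, antigen presentation, cohesin, epithelial-mesenchymal, fibroblast, interferon, leukocyte and neuroendocrine lists changed sign in at least 1 comparison under some setting, and the R219S median of the basal markers ranged from 0.069 to 0.85. Depth limits the genes near or under 1 CPM at 0 h or in WT.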

Other observations

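Several lists not described above had members on both sides. Of all genes tested, 28.7% were higher and 29.6% lower in R219S, and 27.9% were higher and 29.5% lower at 24 h. Of 25 hypoxia and glycolysis genes, 15 were higher and 5 lower in R219S and 6 higher and 10 lower at 24 h. PDK1, which restrains pyruvate oxidation, had opposite changes (higher in R219S, lower at 24 h), and VEGFA, the angiogenic growth factor, rose in both. Of 20 NRF2 and glutathione genes, 11 were higher and 3 lower in R219S, and 10 were higher and 8 lower at 24 h. In this list 6 rose in both (10.9% of all genes), including NQO1, a quinone reductase. Another 3 fell in both (11.6% of all genes) and 4 had opposite changes (14.0% of all genes). Of 24 interferon-stimulated genes, 4 were higher and 6 lower in R219S and 5 higher and 4 lower at 24 h, and 7 were called in neither. Of 13 antigen presentation genes, 2 were higher and 4 lower in R219S and 2 higher and 5 lower at 24 h.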
